A study of Mus musculus with 6 samples.

Results

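Mouse chromosome 1 was examined as 816 genes, out of 3436 genes that the GENCODE annotation of the GRCm38 build places on the chromosome and the deposited table lists. A gene was kept when at least 3 of the 6 libraries held 10 or more estimated counts. The same rule kept 13609 of 53465 genes in the whole table. Chromosome 1 was chosen because the median change of its genes between the lines was among the lowest of the chromosomes, so every change given here is a description of values that chose the chromosome and none is tested as a finding about it. RNA was sequenced from 4T1 cells, mouse mammary carcinoma cells that form metastases when grown in Balb/c mice, with 3 libraries of the parental line (P) and 3 of its axitinib-resistant derivative (AxR). Axitinib is a tyrosine kinase inhibitor of the VEGF receptors.

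AxR cells came from spontaneous metastases that were excised from lung or lymph node after the primary tumor had been removed, in mice dosed with axitinib at 100 mg/kg/day. They were then kept in culture with 0.5 μM axitinib for over 2 months. The treatment and dose labels are attached to the AxR samples alone, whereas the growth text of all 6 samples, P included, mentions 0.5 μM axitinib, so the drug status of the P cultures is not settled by the labels. The paper describes the P cells of its expression comparison as vehicle-treated. Metastatic origin, passage through mice, drug and time in culture all separate the lines and cannot be told apart. AxR is a derived line, and neither its clonality nor the origin of its replicates in separate cultures is stated, so the spread between replicates may be technical.

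Neighbouring genes on a chromosome share its copy number and, over shorter stretches, its chromatin. In a cultured tumor line, gain or loss of a chromosome or of a stretch of it can move the transcripts of many unrelated genes a little and in one direction, whereas regulation of a single gene can move its transcript much further. Mouse chromosome 1 is the longest mouse autosome and carries genes of many functions, among them Fn1 (fibronectin), Lamc1 (a laminin chain), Ptgs2 (cyclooxygenase-2), a cluster of interferon-inducible Ifi200 genes and the Sp100 family of nuclear body proteins. No DNA was measured in these samples, and copy number was not tested.

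Library totals lay between 15495260 and 17294525 estimated counts. Of the 6 mammary epithelial markers, 5 were above 1 CPM (the usual unit of counts scaled to library size, here with upper quartile factors) in at least 1 library and Krt5 was at 0, and the summed level was 1530 to 1690 CPM in P and 2320 to 2410 CPM in AxR. None of the leukocyte, endothelial, fibroblast or lung epithelial markers was above 1 CPM in any library. All chromosome 1 genes together gave 7.56% to 7.67% of the counts of the P libraries and 6.19% to 6.28% of those of the AxR libraries. These shares include pseudogenes of mitochondrial sequence, described below, whose values are uncertain.

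To show what lies at the start of genes that followed the shift and of genes that departed from it, promoters are printed for 5 members as 300 bases, from 250 before to 50 after the RefSeq start (GRCm38.p6), 5′ to 3′ on the strand of the gene. Capitals mark CG dinucleotides. The first 3 belong to neighbouring genes that were higher in AxR: Sp110 (chr1:85598761-85599060, minus strand), Sp140 (chr1:85600453-85600752, plus strand) and Sp100 (chr1:85649738-85650037, plus strand). Serpine2 (chr1:79858616-79858915, minus strand) had no count in AxR, and Ncl (chr1:86359406-86359705, minus strand), a gene with many counts farther along the chromosome, was moderately lower.
Sp110: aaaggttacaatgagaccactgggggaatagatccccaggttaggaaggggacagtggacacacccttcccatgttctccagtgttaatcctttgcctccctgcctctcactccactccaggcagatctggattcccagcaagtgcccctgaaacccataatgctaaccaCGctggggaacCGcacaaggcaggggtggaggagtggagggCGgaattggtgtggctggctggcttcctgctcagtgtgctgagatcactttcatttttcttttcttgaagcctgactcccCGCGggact
Sp140: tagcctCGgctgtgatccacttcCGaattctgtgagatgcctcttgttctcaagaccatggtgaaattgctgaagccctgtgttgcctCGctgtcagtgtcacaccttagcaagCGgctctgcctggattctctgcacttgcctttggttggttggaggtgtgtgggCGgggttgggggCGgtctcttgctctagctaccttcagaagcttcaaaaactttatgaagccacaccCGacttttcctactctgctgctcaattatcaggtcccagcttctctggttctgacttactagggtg
Sp100: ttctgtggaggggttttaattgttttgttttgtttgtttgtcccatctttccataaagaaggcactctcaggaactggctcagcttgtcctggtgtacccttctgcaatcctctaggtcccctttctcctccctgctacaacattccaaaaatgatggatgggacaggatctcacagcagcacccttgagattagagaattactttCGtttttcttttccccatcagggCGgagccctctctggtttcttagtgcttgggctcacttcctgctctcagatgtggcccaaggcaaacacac
Serpine2: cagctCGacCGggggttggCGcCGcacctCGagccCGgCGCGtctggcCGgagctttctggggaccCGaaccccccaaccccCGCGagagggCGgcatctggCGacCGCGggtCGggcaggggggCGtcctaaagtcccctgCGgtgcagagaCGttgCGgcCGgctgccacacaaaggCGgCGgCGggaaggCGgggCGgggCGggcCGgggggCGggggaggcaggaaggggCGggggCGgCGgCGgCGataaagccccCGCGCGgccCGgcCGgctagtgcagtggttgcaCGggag
Ncl: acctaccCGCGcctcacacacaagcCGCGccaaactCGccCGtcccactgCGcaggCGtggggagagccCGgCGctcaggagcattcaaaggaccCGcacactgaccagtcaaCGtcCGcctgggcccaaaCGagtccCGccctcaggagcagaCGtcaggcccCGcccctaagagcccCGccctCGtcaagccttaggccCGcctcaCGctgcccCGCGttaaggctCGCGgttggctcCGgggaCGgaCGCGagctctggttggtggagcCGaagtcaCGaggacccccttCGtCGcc

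These windows held 5 CG dinucleotides in Sp110, 7 in Sp140 and 2 in Sp100, against 41 in Serpine2 and 33 in Ncl. A promoter within 5 kb of the annotated start was found for 536 members. Their median was 22 CG dinucleotides, against 7 over all 32851 promoters of the table. The sets are unlike, since the 32851 were not filtered by counts or gene type, whereas 511 of the 536 members were protein-coding. The 378 members within 0.5 (log2) of the chromosome's median change had a median of 22, and the 25 members more than 1 below it had 26. The 40 members more than 1 above it had 8.5. Those 40 also had few counts, with a median of 2.42 CPM against 47.7 CPM for the 378 and 8.6 CPM for the 25. The part of count level in the difference was not tested. An interferon-response motif, GAAA followed after any 2 bases by GAAA, searched on both strands, was in 5 of the 40 (12.5%), in 20 of the 536 (3.73%) and in 3.44% of all promoters. Of the 11 interferon and innate immune members with a promoter, 3 held it. It was in none of the 5 windows printed here.

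The shift of chromosome 1 was small and spread over many of its members. The median log2 fold change of AxR against P was −0.29 (quartiles −0.56 and 0.05), which is 0.819 times the P level, and 590 of 816 members (72.3%) lay below 0. The median over all 13609 genes was 0.009, with 49.3% below 0, and over the 12793 genes not on chromosome 1 it was 0.03. The median was −0.30 among the 653 protein-coding members and −0.33 among the 471 members of at least 20 CPM. A total of 422 members (51.7%) were lower in AxR at an adjusted p under 0.05 in edgeR's quasi-likelihood test, where 30.6% of all genes were, and 123 (15.1%) were higher, where 32.9% of all genes were. Nothing is read from these shares, because the chromosome was chosen on this contrast.

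Changes of 1 or more on the log2 scale were made by a minority of members. Of the 816 members, 57 were called lower with a log2 fold change of −1 or less, a larger share than the 4.71% of all genes. Another 46 were called higher with 1 or more, a smaller share than the 8.11% of all genes. The chromosome was chosen on this contrast, so nothing is read from these shares. All 3 AxR libraries lay below all 3 P libraries for 437 members (53.6%, against 32.8% of all genes) and above them for 131 (16.1%, against 35.3%). Of the members, 567 lay within 0.5 of the chromosome's median and 98 lay more than 1 from it. The shift was clearest where counts were high: 81.1% of the 169 members of at least 100 CPM lay below 0, with a median of −0.34, against 57.6% of the 66 members under 1 CPM, with a median of −0.19.

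Each AxR library showed the shift on its own, and with bulk RNA fewer cells and less RNA per cell cannot be told apart. Against the mean of the P libraries in log2 CPM, the chromosome median was −0.25 in AxR 1, −0.26 in AxR 2 and −0.29 in AxR 3 (SD 0.021, n = 3). When each library was set against the mean of the other libraries of its own line, the chromosome medians lay between −0.011 and 0.014. All 3 AxR values lay outside that range. Nothing is read from this, because the chromosome was chosen on this contrast and the 3 values share the P mean.

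**Figure D1:**
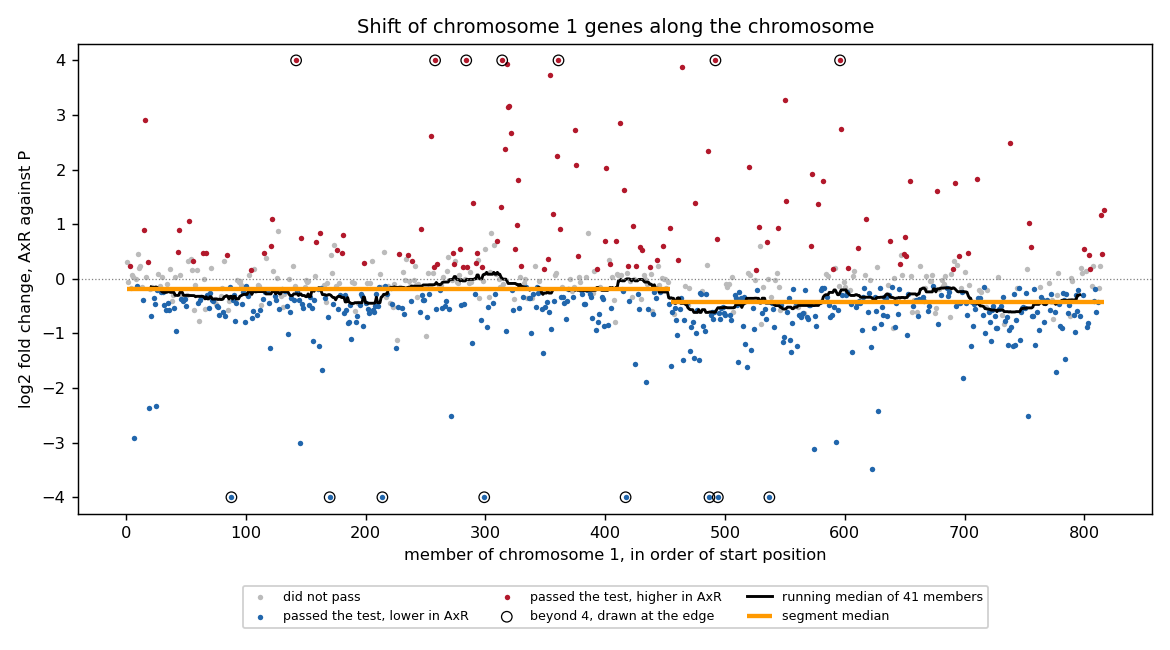
Log2 fold change of AxR against P (y axis) of the 816 members in order of start position (x axis), with members that passed the test in colour, those beyond 4 ringed at the edge, the running median of 41 members in black and the segment medians in orange. Most points and the running median sit below 0, and the orange line steps down from −0.18 to −0.42 after member 454.

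The median change differed along the chromosome, and over a few stretches it lay near 0 or above it. An optimal partition of the members in order of position, which adds a break only where it lowers the squared deviation by more than a penalty, gave 2 segments. The first ran from Gm6085 to AA986860 (chr1:4687934-130744622, 454 members) with a median of −0.18. The second ran from Il24 to Gm38194 (chr1:130882074-195323493, 362 members) with a median of −0.42. The segments correspond to 0.882 and 0.748 times the P level, and 67.4% and 78.5% of their members lay below 0.

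In the first segment 198 members were lower (43.6%) and 79 higher (17.4%) by the test, and in the second 224 were lower (61.9%) and 44 higher (12.2%), where 30.6% of all genes were lower and 32.9% higher. The medians before the break were −0.17, −0.16 and −0.21 in AxR 1, 2 and 3 (SD 0.025), and after it −0.38, −0.36 and −0.40 (SD 0.017). The break was placed on these same changes, so the distance between the segments is a description of the partition. The members after the break took 3.08% to 3.12% of the counts in P and 2.26% to 2.34% in AxR. Both segments kept their order among members of at least 20 CPM, at −0.22 for 248 members and −0.44 for 223.

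The genes beside the break moved in both directions. Yod1, which encodes a deubiquitinase, lay upstream of it with 33.9, 28.7 and 34.9 CPM in P and 22.7, 25.9 and 21.8 CPM in AxR (log2 fold change −0.47, SE 0.090). AA986860, the last member before the break, was low in both lines, at 0.73, 0.81 and 1.11 CPM in P and 2.03, 1.72 and 1.31 CPM in AxR. The AxR libraries were below the P libraries for the first gene and above them for the second.

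Il24 (chr1:130882074-130887454), a cytokine gene of the IL10 family, was the first member after the break and had 20.9, 28.3 and 26.3 CPM in P against 7.81, 7.97 and 9.18 CPM in AxR (log2 fold change −1.59, SE 0.12). Mapkapk2, which encodes a kinase activated by p38, followed with 175.0, 184.3 and 177.6 CPM in P and 109.3, 119.7 and 121.3 CPM in AxR (−0.62, SE 0.054). Neither gene overlapped between the lines. Within the 41 members from Il24 to Tmem183a (chr1:130882074-134361979) the running median reached its lowest value on the chromosome, −0.62, with 29 members lower and 6 higher. Over all genes, 30.6% were lower and 32.9% higher, and this window was picked as the lowest.

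**Figure D2:**
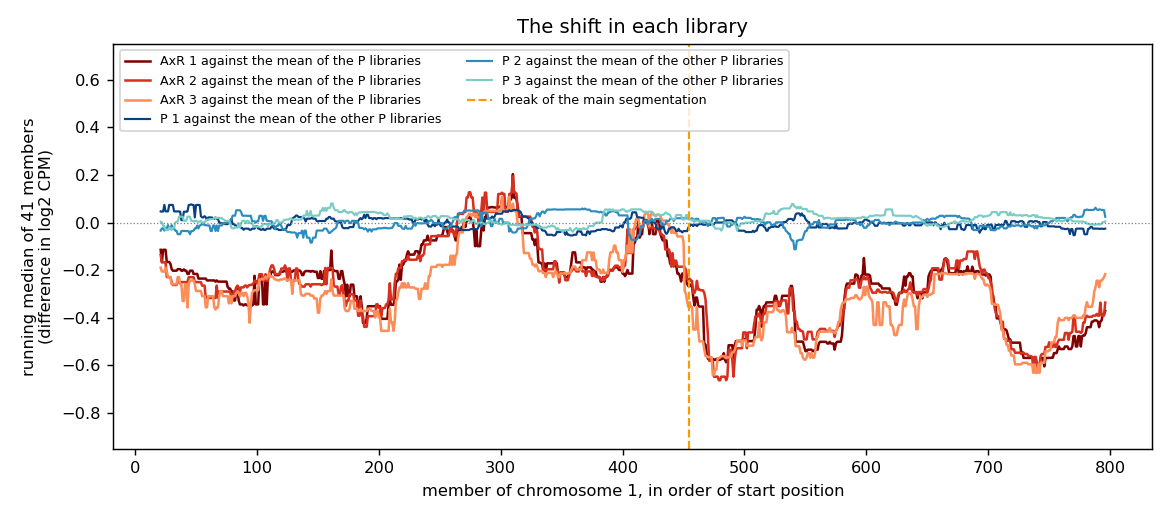
Running median of 41 members of the difference in log2 CPM (y axis) along the member order (x axis), for each AxR library against the mean of the P libraries (reds) and each P library against the mean of the other P libraries (blues). The 3 red lines fall and rise together and are all below −0.5 shortly after the break (dashed), while the blue lines stay near 0.

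With a lower penalty the same break was kept and 4 more appeared, giving 6 segments with medians from −0.54 to 0.12. The 227 members from Gm6085 to Creb1 (chr1:4687934-64604548) had a median of −0.29. The next 227, from Mettl21a to AA986860 (chr1:64606473-130744622), had −0.097, with 83 lower (36.6%) and 56 higher (24.7%). Over all genes, 30.6% were lower and 32.9% higher by the test. Over all members, the stretch of least shift was therefore in the middle of the chromosome. The running median rose there to 0.12 over the 41 members from Tuba4a to A630001G21Rik (chr1:75214228-85778643), 10 of which were lower and 15 higher. That window was picked as the highest, and nothing is read from its counts. Among members of at least 20 CPM the medians lay closer, at −0.25 up to Creb1 (129 members) and −0.18 from Mettl21a to AA986860 (119 members).

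After the main break, the 117 members from Il24 to Lamc1 (chr1:130882074-153332786) had a median of −0.53. The 133 from Dhx9 to Rbm8a2 (chr1:153455758-175979114) had −0.25, and the 92 from Cep170 to Lpgat1 (chr1:176733653-191784255) had −0.54, with 91.3% below 0. The last 20 members, from Gm38037 to the distal end (chr1:191820370-195323493), had 0.12, but the median of these 20 was 0.092, −0.13 and −0.058 in the AxR libraries and is thus not settled in sign.

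Positions were also read in fixed 20 Mb bins, which need no partition. Bin medians ran from −0.48 (140 to 160 Mb, 62 members) to 0.020 (100 to 120 Mb, 26 members), and the other 8 bins were all below 0. Of 776 windows of 41 members, 20 had a median above 0 and 548 a median below −0.2. The longest stretch of consecutive members below 0 was 22 members, from Brox to Pdcd5-ps (chr1:183276352-189402273), 15 of them lower by the test. A stretch of 20 ran from Odr4 to Lamc1 (chr1:150361305-153332786), with 17 lower. The longest stretch above 0 was 6 members, from Aldh9a1 to Ddr2 (chr1:167349991-170110762), 4 of them higher. These stretches were picked by the sign of the change, and over all genes 30.6% were lower and 32.9% higher.

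Adjacent members were only weakly alike in their changes. Spearman's rho between the changes of adjacent members was 0.14 over 815 pairs, and 0.061 between members 5 apart and 0.020 between members 20 apart. On the other 19 chromosomes, rho between adjacent genes was 0.050 to 0.22, with a median of 0.14. These are descriptions over genes of the same libraries, and some adjacent genes overlap.

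Other chromosomes shifted as well. By median, chromosome 1 was the second lowest of the 20 chromosomes, after chromosome 16 (−0.32) and next to chromosomes 13 (−0.27) and 9 (−0.23). The same partition left 9 of the 20 chromosomes as 1 segment and divided 5, chromosome 1 included, into 2. The distance between the segment medians on chromosome 1 was 0.238, against 0.182 on chromosome 9, 0.700 between the extreme segments of chromosome 13 and 0.667 between those of chromosome 16. On the other chromosomes with 2 segments it was 0.182 (chromosome 11), 0.148 (chromosome 17) and 0.562 (chromosome X). The interquartile range of chromosome 1 was 0.611 and ranked 11 of 20.

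**Figure D3:**
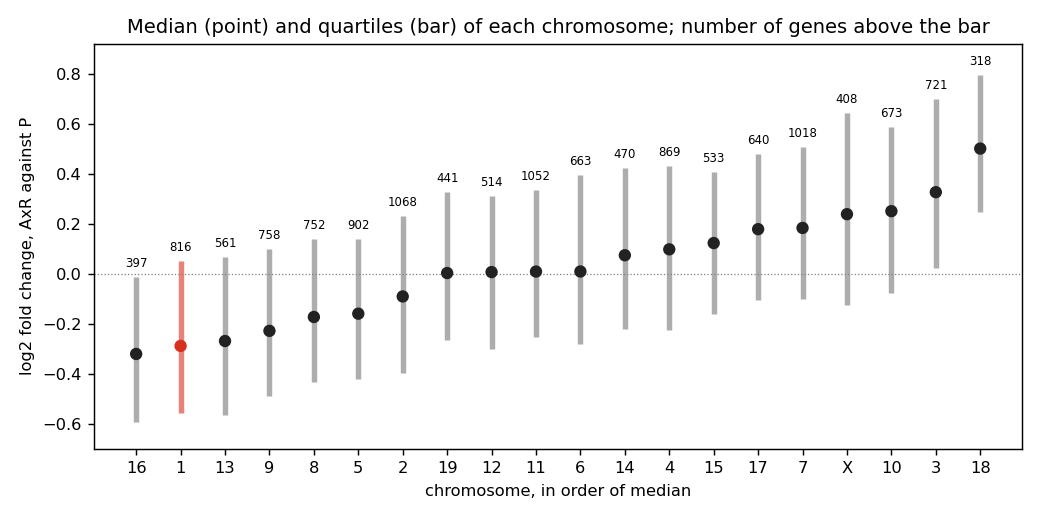
Median (point) and quartiles (bar) of the log2 fold change of AxR against P (y axis) for each chromosome (x axis, in order of median), with the number of genes above each bar and chromosome 1 in red. Chromosome 1, at −0.29 over 816 genes, sits second from the left, and the quartile bars of all chromosomes overlap those of their neighbours.

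Among the members with the most counts, a scale not adjusted for transcript length, most followed the shift. Fn1 (chr1:71585520-71653200), which encodes the matrix glycoprotein fibronectin, had 3678, 3630 and 3547 CPM in P and 2718, 2693 and 2845 CPM in AxR (log2 fold change −0.39, SE 0.044). Ncl, which encodes nucleolin, a protein of the nucleolus and of ribosome assembly, had 2263, 2199 and 2213 CPM in P and 1626, 1537 and 1456 CPM in AxR (−0.53, SE 0.048). Neither overlapped between the lines. Dst (−0.41), Eprs (−0.44), Rpl7 (−0.24) and Hnrnpu (−0.15) were also lower, and Ptma, which encodes prothymosin alpha, was higher (0.23, SE 0.071).

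The others with the most counts were 3 adjacent unprocessed pseudogenes, Gm28437, Gm10925 and Gm28661 (chr1:24613189-24615565), which are nuclear copies of mitochondrial sequence and can share reads with mitochondrial transcripts. Their values, 1739 to 2520 CPM in P and 2232 to 2835 CPM in AxR on average, are therefore uncertain as levels of chromosome 1 transcripts. Only Gm28661 passed the test.

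The gene lists are given beside the shares called over all members (51.7% lower and 15.1% higher) and over all genes (30.6% lower and 32.9% higher). Genes of ribosome, splicing and chromatin lay around the chromosome's median. Of 31 members of this list, 20 were lower, 3 higher and 8 did not pass, with a median of −0.29, against 0.009 over all genes. Klf7, a zinc finger transcription factor gene, was lowest (−1.28, SE 0.065), and Nop58 (−0.55), a box C/D snoRNP protein gene, Eef1b2 (−0.46), a translation elongation factor gene, and Rpl31 (−0.37) were lower. Psmd1, which encodes a subunit of the proteasome regulatory particle, went the other way, with 143.9, 153.6 and 148.6 CPM in P and 221.5, 219.0 and 211.2 CPM in AxR (0.55, SE 0.049). Its libraries did not overlap.

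Of 27 mitochondrial and metabolic members, 14 were lower, 2 higher and 11 did not pass (median −0.17), so the share lower was about that of all members (51.7%, against 30.6% of all genes). Atp1b1, the beta subunit gene of the sodium and potassium pump, fell from 73.9, 72.6 and 78.5 CPM in P to 14.2, 13.9 and 13.7 CPM in AxR (−2.43, SE 0.069). Respiratory chain subunit genes changed by less. Sdhc fell by 0.39 and Cox5b by 0.24 on the log2 scale, Ndufa10 was slightly lower (−0.18), and Ndufb3 did not pass (−0.085). Idh1, which encodes cytosolic isocitrate dehydrogenase, rose by 0.43 (SE 0.11).

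Cell division genes were called in both directions. Of 15 mitosis and centromere members, 6 were lower, 4 higher and 5 did not pass (median −0.041). Over all genes, 30.6% were lower and 32.9% higher, and over all members 51.7% and 15.1%. Cep170, a centrosomal protein gene, had 429.3, 440.3 and 443.9 CPM in P and 187.9, 184.0 and 186.7 CPM in AxR (−1.23, SE 0.045). Aspm, a spindle pole gene, had 109.3, 125.1 and 110.7 CPM in P and 196.1, 176.4 and 177.8 CPM in AxR (0.67, SE 0.063). Both genes were separated between the lines, in opposite directions. Of 13 DNA replication and repair members, 6 were lower, 2 higher and 5 did not pass (median −0.14). The 2 higher ones were Mcm6 (0.60, SE 0.069), a subunit of the replicative helicase, and Exo1 (0.47, SE 0.078), an exonuclease.

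Of 21 members of the receptor kinase, signalling and RGS list, 15 were lower, 2 higher and 4 did not pass, with a median of −0.46, where 51.7% of all members and 30.6% of all genes were lower. Rgs16 (chr1:153740349-153745468), a regulator of G protein signalling, fell from 37.6, 40.7 and 37.6 CPM in P to 5.40, 3.51 and 4.50 CPM in AxR (−3.11, SE 0.11). Epha4, an Eph receptor tyrosine kinase gene, fell by 1.18 (SE 0.12). Ddr2, a collagen receptor kinase gene in the stretch of 6 members above 0, rose from 414.0, 440.2 and 422.8 CPM to 567.4, 554.0 and 583.0 CPM (0.42, SE 0.046).

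Of 6 members of the IL1 receptor and cytokine list, 4 were lower and 2 higher, and 11 of the 17 genes of that list were not members. Among all members 51.7% were lower, and among all genes 30.6%. Ptgs2, which encodes the inducible cyclooxygenase of prostaglandin synthesis, had 745.4, 716.9 and 765.8 CPM in P and 368.2, 361.2 and 331.6 CPM in AxR (−1.07, SE 0.051). Pla2g4a, the cytosolic phospholipase that supplies its substrate, also fell (−0.47, SE 0.045), as did Il1r1, the IL1 receptor (−1.27, SE 0.077). Il18rap, a subunit gene of the IL18 receptor (0.60, SE 0.096), and Ackr3, an atypical chemokine receptor gene (0.35, SE 0.068), rose.

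Apoptosis and stress genes were lower in 8 of 13 members, higher in 2 and did not pass in 3 (median −0.33), where 51.7% of all members and 30.6% of all genes were lower. Fam129a fell by 1.24 (SE 0.047), Mdm4, an inhibitor of p53, by 0.86 (SE 0.047), Cflar, an inhibitor of caspase-8, by 0.79 (SE 0.048), and Casp8 itself by 0.69 (SE 0.057). Bcl2, an anti-apoptotic gene, did not pass (0.065, SE 0.054). Of 10 matrix members, 5 were lower, 1 higher and 4 did not pass (median −0.24). Lamc1, a laminin chain gene, fell by 0.49 (SE 0.047).

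**Figure D4:**
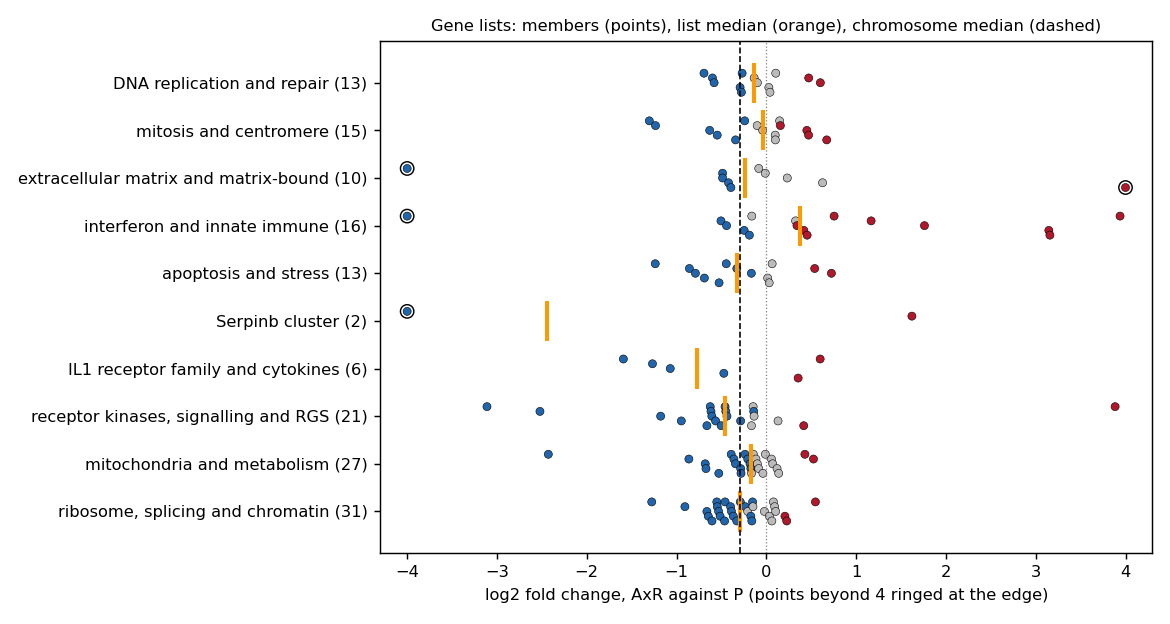
Log2 fold change of AxR against P (x axis) of the members of 10 gene lists (y axis, number of members in parentheses), blue for lower, red for higher and grey for not passed, with the list median in orange and the chromosome median of −0.29 dashed. Only the interferon and innate immune list has its median above 0.

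The interferon and innate immune list was the one whose median lay above 0, at 0.38. Of its 16 members, 9 were higher, 5 lower and 2 did not pass, where 15.1% of all members and 32.9% of all genes were higher. Sp110, Sp140 and Sp100, neighbouring genes of nuclear body proteins that respond to interferon, were the highest of them. Sp110 had 0.365, 0.519 and 0.326 CPM in P and 6.86, 5.87 and 6.33 CPM in AxR (log2 fold change 3.94, SE 0.23). Sp140 rose from 2.37, 2.42 and 2.15 CPM to 20.6, 20.2 and 20.9 CPM (3.15, SE 0.12), and Sp100 from 1.34, 1.27 and 1.63 CPM to 13.1, 12.7 and 12.1 CPM (3.16, SE 0.15). No library overlapped between the lines for any of the 3 genes. Sp110 was a member through its AxR counts alone, so the count rule itself required its lines to differ. They are related in sequence and reads can be divided among them, so the value of each is uncertain. The windows printed for these genes are the ones poor in CG.

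Inside the Ifi200 cluster the members did not move together. Ifi207 (1.76, SE 0.28) and Mndal (0.42, SE 0.069) were higher, and Ifi204 (−0.51, SE 0.057), Ifi211 (−0.44, SE 0.076) and Ifi202b (−0.25, SE 0.057) were lower. Ifi203 (−0.16, SE 0.068) and Ifi209 (0.33, SE 0.30) did not pass. The cluster members are close paralogs, and reads can be divided among them.

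The largest single changes were spread over both segments. Among members that reached 5 CPM in 1 line and did not overlap between P and AxR, the 10 lowest included Serpine2, Plcl1, Neurl3, Rgs16, Ralgps2, Atp1b1, Sgk3, Slco5a1 and Htr5b. Serpine2, which encodes the protease inhibitor nexin-1, had 11.6, 11.2 and 9.97 CPM in P and no count in the 3 AxR libraries. It was at least 55.9-fold lower, the largest bound on the chromosome, and it lies in the stretch of least shift. Plcl1, which encodes a phospholipase C-like protein, had 5.84, 6.64 and 6.90 CPM in P and at most 0.127 CPM in AxR, at least 33.1-fold lower. Both were members through P alone and so had to differ.

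The 10 highest were Speg, Tns1, Sp110, Sp100, Sp140, 2610203C22Rik, Ephx1, Sox13, Sned1 and Pkp1. Speg (chr1:75375297-75432320), a striated muscle kinase gene, had 0.122, 0.346 and 0.456 CPM in P and 18.2, 17.1 and 17.5 CPM in AxR (5.81, SE 0.21). Tns1, which encodes tensin, a focal adhesion protein, rose from 0.365, 0.462 and 0.456 CPM to 10.4, 11.4 and 10.5 CPM (4.63, SE 0.19). Sned1, an extracellular matrix gene, had 30.2, 43.0 and 39.7 CPM in AxR against 7.72, 9.06 and 9.70 CPM in P (2.09, SE 0.14). Speg and Tns1 were members through AxR alone and so had to differ, and the lines did not overlap for any of the 10 genes, as the choice of genes required.

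**Figure D5:**
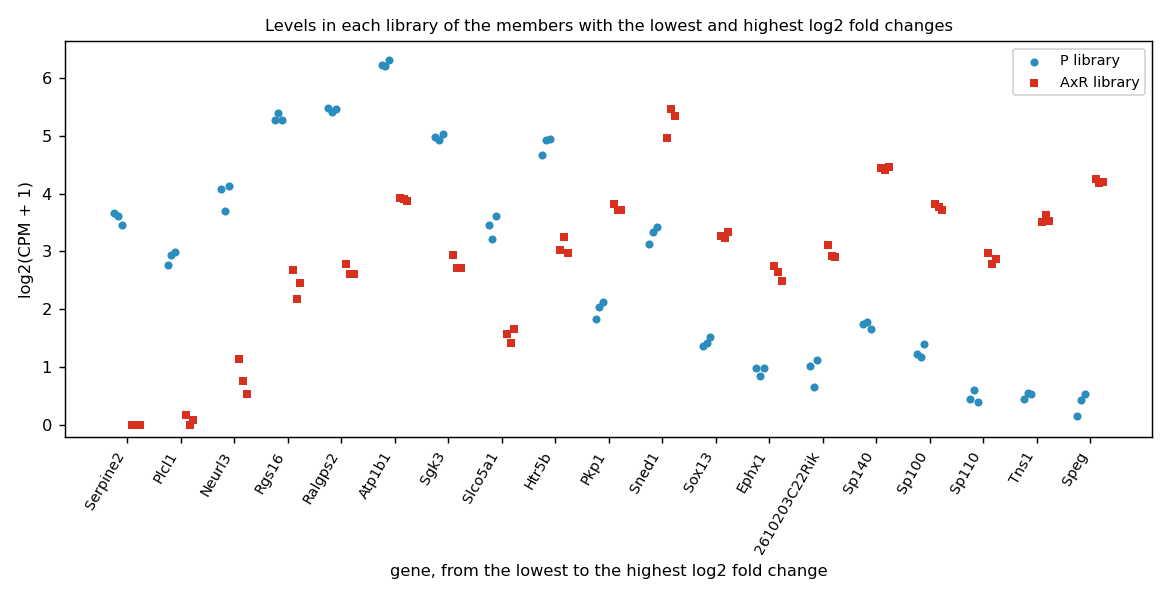
Level as log2(CPM + 1) (y axis) in each P (circles) and AxR (squares) library of members among the 10 lowest and the 10 highest log2 fold changes (x axis). Circles and squares are separated for every gene drawn, and the 3 AxR squares of Serpine2 lie at 0.

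A floor of 3 counts was not exceeded by 14 members in any library of 1 line. The 8 at the floor in AxR included Serpine2, Plcl1, Serpinb2, Adora1, Selp, Gm8596 and Pard3b, with bounds of at least 3.45-fold to at least 55.9-fold lower. The 6 at the floor in P were Klhl30, Sec16b, Rab7b, C130026I21Rik, Prelp and Gm28321, with bounds of at least 3.45-fold to at least 21.4-fold higher. Of the Serpinb cluster, 2 of 9 genes were members: Serpinb2 was at least 12.99-fold lower and Serpinb5 rose by 1.62 (SE 0.21). With these genes at their bounds the chromosome median was still −0.29.

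The count rule itself set who was a member. A total of 1726 of the 3436 chromosome 1 genes were at 0 throughout, and 653 of the 1199 protein-coding genes were members. There were 13 members that passed through P alone and 22 through AxR alone, which had to differ. Just outside the rule were Gm19918, Gm17017 and B3galt2, whose third-highest counts were 9.11, 9.08 and 9.0, and just inside it were Pard3b, Gm19705 and Gm28321, at 10.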

How the data were processed

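Poly(A)-selected, stranded libraries of 3 P and 3 AxR samples were sequenced by the authors, who checked reads with FastQC 0.11.5, aligned them to GRCm38 with STAR 2.6.0a and deposited RSEM 1.3.1 estimated counts per gene. RSEM divides reads that match several genes, so the deposited estimated counts need not be whole (28.2% to 29.4% of the values above 0 in a library had a fractional part). No column was left unmapped.

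Groups and replicate numbers came from the sample labels. Estimated counts were rounded and filtered (10 counts in at least 3 of 6 libraries), normalized by upper quartile and tested in edgeR 4.0.16 (R 4.3.3) by its quasi-likelihood method, with line as the only term and Benjamini-Hochberg adjustment over 13609 genes, at a threshold of 0.05. Levels are CPM from edgeR. The SE given with a log2 fold change is its absolute value divided by the square root of the quasi-likelihood F statistic, not a separately fitted standard error. A gene at 3 counts or fewer in every library of a line gave a bound, computed at the highest floor of a library, 0.195 CPM, which covers counting error only. Positions came from GENCODE M21, which held 53360 of the 53465 identifiers. The partition minimized squared deviations, with changes clipped to within 1 of the chromosome median, segments of at least 20 members and a penalty factor of 3. The edgeR fit and the partition were each tested on simulated data. The edgeR simulation changed a small set of genes in random directions, so it does not cover shifts of whole chromosomes. Promoters came from RefSeq.

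The chromosome, its members, the gene lists and the tests were chosen with earlier results of these data known. Named genes are the 2 members on each side of the break, the 10 highest and 10 lowest changes among separated members of at least 5 CPM, the 10 most expressed and the members of the 10 lists. Genes that end a segment, window or run, lie at a floor or lie at the edge of the count rule are named for their place. Some genes that these rules name are not reported here. Alternatives were other normalizations, filters and partitions, DESeq2 1.42.0, a replicate block and leaving out each library.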

Additional observations from a re-analysis of the deposited data

How the results depend on the processing

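The break at member 454 was found again within 1 Mb under each of the partitions, normalizations, filters and left-out libraries tried. The medians of the chromosome and of the 2 main segments kept their sign in every fit and set of members for which they were computed. Among the alternative partitions, medians were computed only for the segments of the lower penalty, and these ran from −0.54 to 0.12. The median of all genes lay between −0.014 and 0.009 under TMM, library size only, upper quartile and DESeq2. With library size only, the chromosome median was −0.311 and that after the break −0.441. With 10 counts required in all 6 libraries, the step between the segments was −0.248. With GC content and length of the exons accounted for by medians over bins, the chromosome median was −0.264, that after the break −0.390 and the step −0.208. Protein-coding members alone gave −0.209 before the break and a step of −0.216. Members of at least 20 CPM gave −0.325 for the chromosome, −0.223 before and −0.445 after the break, and a step of −0.222. The lower penalty gave 6 segments in place of 2. The partition gave 3 segments with library size only, with the replicate block, without AxR replicate 1, without P replicate 2, with protein-coding members only and with AxR replicate 3 alone, and the added break lay at 64.6 Mb in 4 of these 6, at 72.2 Mb without AxR replicate 1 and at 191.8 Mb with AxR replicate 3 alone. A log2 fold change of at least 1 left 57 lower and 46 higher members. Without single libraries, the chromosome median ran from −0.292 to −0.262, the median after the break from −0.419 to −0.386 and the step from −0.239 to −0.202, and 390 to 409 members were lower and 108 to 121 higher.

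With the replicate number as a replicate block, 405 members were lower and 121 higher. The sample titles give replicate numbers but no pairing. Same-numbered libraries had correlations of −0.018, −0.0025 and −0.012 between their deviations from the line means, which cannot settle whether they were handled together.

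Of 2262 single-gene values for 175 genes, none that passed the test changed sign, 52 lost and 31 gained the call, and 24 near 0 changed sign without a call. Ptma lost its call without AxR replicate 1 (0.19) or AxR replicate 2 (0.19), Hnrnpu without AxR replicate 3 (−0.10) or P replicate 3 (−0.15), and Cox5b without P replicate 2 (−0.16). AA986860 lost its call with DESeq2 (0.92) and without AxR replicate 1 (0.78) or P replicate 1 (0.82). In the list counts, Kif14 and Traf5 (higher), Pea15a and Inpp4a (lower) and Steap3 (higher) lost their calls under several alternatives, and Ifi203 gained one (lower). Calls were less frequent at low counts: of the 143 members of 1 to 5 CPM, 31 were lower and 31 higher, and of the 66 under 1 CPM, 9 and 15.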
